A study of Sus scrofa with 28 samples.

Results

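In pig ham muscle 7 enzyme genes of mitochondrial fuel use were examined: IDH2, IDH3B, DLST and SUCLA2 of the citric acid cycle, and CPT1B, ACADS and HADHA of fatty acid oxidation. They were taken as every probe of the array whose annotation gives exactly 1 of these symbols. That gave 9 probes for 7 genes, 3 probes for IDH2 and 1 for each of the others, out of 4608 probes, of which 509 carry a single symbol and stand for 211 symbols. The Entrez identifiers of the 7 genes are 397603 (IDH2), 733641 (IDH3B), 397690 (DLST), 399540 (SUCLA2), 399528 (CPT1B), 396932 (ACADS) and 397012 (HADHA), and RefSeq lists the same symbols for them. Probes of a gene are told apart by the last digits of their identifier.

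The study set RNA of the semimembranosus, a large muscle of the ham, from 7 pigs with normal meat (low L*, the lightness of the cut surface) against RNA from 7 pigs with destructured meat (high L*). Destructured meat is a pale, soft defect of the ham. No treatment or allele separates the groups, which rest on the meat measurement alone, and breed, sex and age are not given in the sources used here. Each pig's total RNA was hybridised to 1 nylon array of cDNA probes, printed in full on its left and again on its right side, and the pig is the replicate. The labels give the same pig number to normal replicate 2 and destructured replicate 3. Whether these are 1 animal is not given, so their independence is in doubt, and each is counted as a pig here.

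The citric acid cycle takes acetyl groups from sugar and fat and hands their electrons to the respiratory chain. Long-chain fatty acids enter mitochondria through the carnitine shuttle and are shortened there in repeated rounds of beta-oxidation. Slow, oxidative fibres rely on both pathways, and the pale fibres of the ham depend more on glycolysis.

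None of the 9 member probes differed between destructured and normal muscle by limma after Benjamini-Hochberg adjustment over all 4608 probes. Of all probes 30 passed, 0.651%. At an unadjusted p under 0.05 stood 1 of the 9 probes, that listed for HADHA, where 13.0% of all probes did so in either direction and 4.64% with a lower value in destructured muscle. In no member probe were all 7 pigs of a group beyond all 7 of the other, which held for 1.28% of all probes. The log2 fold change (destructured minus normal throughout) ran over the members from -0.51 to 0.26 with a median of -0.24, and 6 of the 9 were negative. Over all probes the median was -0.02, and 53.7% were negative. Among the 509 probes with a single symbol, from which the members come, the median was -0.052, and 59.1% were negative. In a bulk muscle sample, fewer cells of a type and less RNA per cell cannot be told apart.

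The arrays differ in how far they can be trusted. Across probes the correlation between the 2 parts had a median of 0.947 over the pigs, but was 0.380 in normal replicate 3, against at least 0.868 in every other pig. For 5 member probes these parts lay far apart. On the log2 scale the left minus the right part was -3.64 for DLST, -3.55 for IDH3B, 2.53 for SUCLA2, 2.57 for CPT1B and 1.56 for IDH2 probe 6919. Fold changes also varied with table position: 72 positions (12 columns by 6 rows) repeat down the table, and they held 27.3% of the variance over all probes. Of the 30 probes that passed, 27 lay in columns 2 to 7 of these positions. The mean log2 fold change was 0.11 there and -0.11 in the other columns. The members are therefore given also without the right part of normal replicate 3, and with the median of each position subtracted in every array part.

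Muscle fibre markers were looked at for the tissue. Of 20 listed genes 12 have probes, 136 in all, and for 9 of the 12 the brightest probe lay in the brightest 25% of all probes. A gene's brightest probe was picked from up to 34, so that count cannot check the tissue. Of the 136 probes 29.4% lay in the brightest 25%. The 136 probes together had a median brightness percentile of 48.5, close to the middle of the array. Whether the annotation's names sit on the right rows of the table could not be settled here. Muscle marker probes were no brighter than all probes with a single symbol, which include them (median percentile 50.95). The 3 IDH2 probes did not move together. They were also dim, at brightness percentiles of 28.9, 24.5 and 12.4 for probes 5555, 6919 and 8514. The cause of their disagreement was not tested. Since a name may belong to another row, each value below is only that of the probe listed for a gene. Means over the 136 probes ran from 1.58 to 1.73 in normal and from 1.54 to 1.64 in destructured pigs (log2 intensity), and 0 of them passed.

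**Figure D1:**
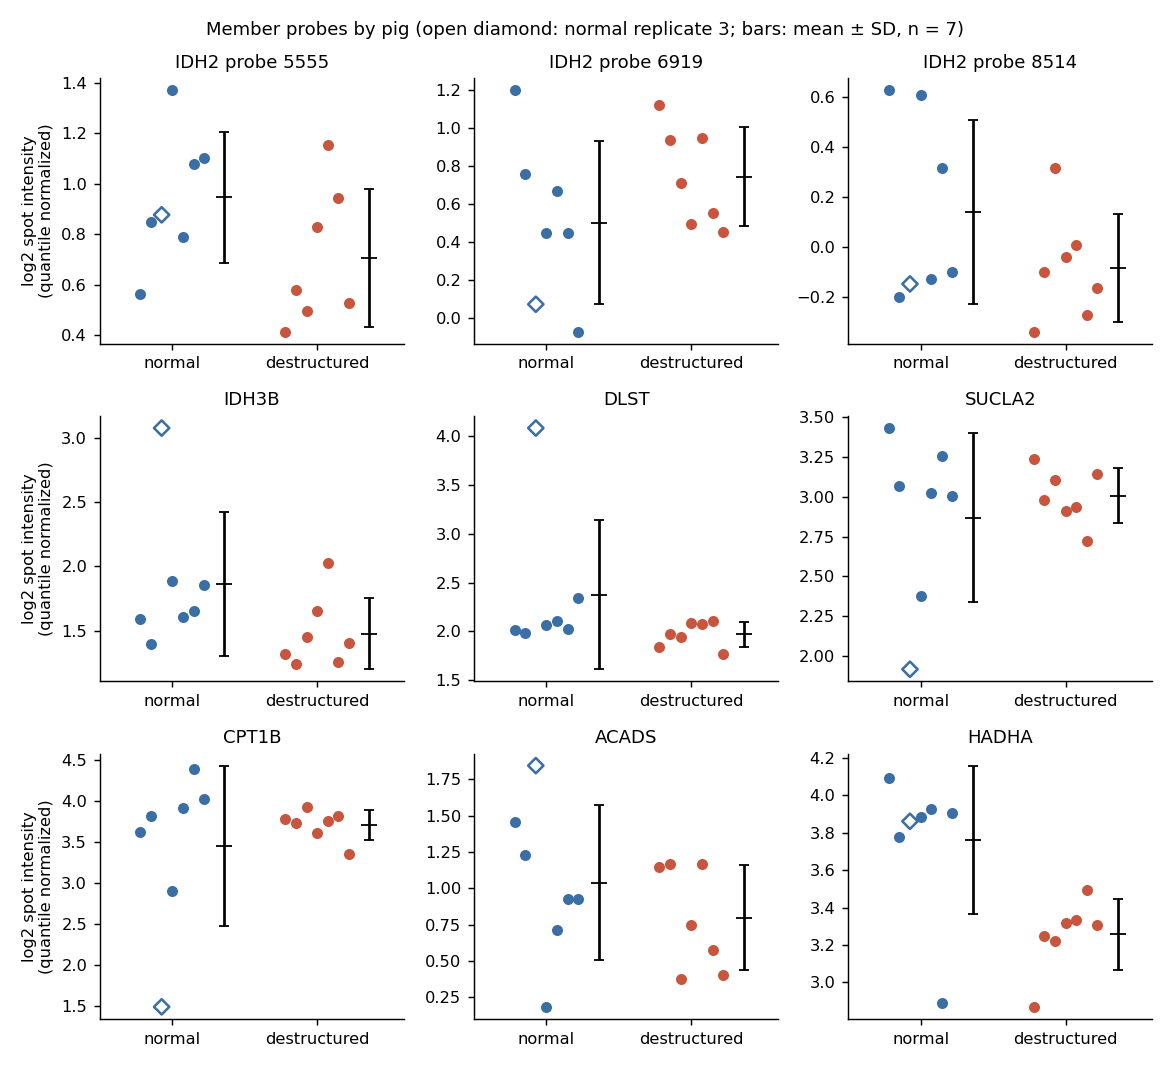
Log2 spot intensity (quantile normalized, left and right parts averaged) of each of the 9 member probes in 7 normal and 7 destructured pigs; each point is a pig, the open diamond is normal replicate 3, and black bars are the mean ± SD of 7 pigs. Only in the HADHA panel do 6 of 7 normal pigs lie above all destructured pigs, and normal replicate 3 is the highest normal pig for DLST, IDH3B and ACADS and the lowest for SUCLA2 and CPT1B.

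CPT1B is the muscle form of carnitine palmitoyltransferase I, which commits long-chain fatty acids to the mitochondrion. Its probe ran from 1.49 to 4.39 with a median of 3.82 in normal pigs and from 3.35 to 3.92 with a median of 3.75 in destructured pigs. The destructured pigs thus lay inside the normal range, and the low end was normal replicate 3. The fold change was 0.26 (SE 0.32, 95% interval -0.43 to 0.94, limma, adjusted p = 0.790). Without the right part of that pig's array it was 0.069 (SE 0.20), and the normal SD went from 0.975 to 0.581 against 0.180 in destructured pigs. Leaving that pig out gave -0.071. With both changes it was 0.013 (SE 0.20). Its array parts had the highest correlation of the members, r = 0.893 over the 13 other pigs.

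ACADS, the short-chain acyl-CoA dehydrogenase, takes the first oxidation step on short chains. Its probe ran from 0.18 to 1.84 with a median of 0.93 in normal and from 0.37 to 1.17 with a median of 0.74 in destructured pigs. The groups overlapped, with 3 normal pigs above every destructured pig and 1 below. The fold change was -0.24 (SE 0.22, 95% interval -0.71 to 0.22, limma, adjusted p = 0.671). It was -0.11 without normal replicate 3 and -0.39 without normal replicate 4, the lowest normal pig. It was -0.013 on the deposited scale and -0.036 with array weights. Probes at its position had a median of 0.11, and with position medians removed ACADS was at -0.42 (SE 0.23, limma, adjusted p = 0.577).

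HADHA encodes the alpha subunit of the mitochondrial trifunctional protein, which carries out the later steps of beta-oxidation on long chains. Its probe ran from 2.89 to 4.09 with a median of 3.88 in normal pigs (log2 intensity), and from 2.87 to 3.49 with a median of 3.31 in destructured pigs. Of the 7 normal pigs 6 lay above the highest destructured pig, and normal replicate 6, at 2.89, lay near the lowest. The means were 3.76 ± 0.397 and 3.26 ± 0.191 (SD, n = 7 each), a difference of -0.51 (SE 0.17, 95% interval -0.85 to -0.16) or 1.42-fold. By limma this had p = 0.00694 and an adjusted p of 0.161, which missed the threshold. The two-sided exact permutation test of the means gave p = 0.0128, adjusted 0.181. All 7 destructured pigs were below the normal mean.

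The HADHA value depended on a pig and on its place in the table. Without normal replicate 6 the fold change was -0.65 (SE 0.12) and passed (limma, adjusted p = 0.0302), the sole setting in which any member did. The array parts gave -0.49 (left, SE 0.23) and -0.52 (right, SE 0.24). The 64 probes that share its position had a median fold change of -0.39, 61 of them were negative, and 17 were lower than HADHA. With position medians removed HADHA stood at -0.10 (SE 0.18, limma, adjusted p = 0.898). Its pigs then ran from 0.24 to 1.29 in normal and from -0.022 to 0.91 in destructured muscle, and the groups overlapped widely. Without normal replicate 6 and with position medians removed, a setting chosen after the data were seen, it was -0.18 (SE 0.18, limma, adjusted p = 0.764).

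IDH2 is the NADP-dependent isocitrate dehydrogenase of mitochondria, which also supplies reducing power there, and its 3 probes disagreed in sign. Probe 5555 ran from 0.56 to 1.37 (median 0.88) in normal and from 0.41 to 1.15 (median 0.58) in destructured pigs, and probe 8514 from -0.20 to 0.63 (median -0.099) and from -0.34 to 0.32 (median -0.10). Probe 6919 ran from -0.074 to 1.20 (median 0.45) in normal and from 0.45 to 1.12 (median 0.71) in destructured pigs. The ranges overlapped for each of them. The fold changes were -0.24 (SE 0.15, 95% interval -0.55 to 0.074), -0.22 (SE 0.16, -0.57 to 0.12) and 0.24 (SE 0.18, -0.14 to 0.62) for probes 5555, 8514 and 6919, with limma adjusted p of 0.510, 0.571 and 0.589. On the deposited scale, where the median of all probes was 0.21, these were 0.047, 0.056 and 0.50. With position medians removed they were -0.080, -0.41 and 0.078. Dropping only the right part of normal replicate 3 gave -0.26, -0.25 and 0.13, and both changes gave -0.14, -0.38 and 0.021. Single pigs moved them too: probe 6919 was at 0.15 without normal replicate 7, and probe 8514 at -0.14 without normal replicate 1. Probe 8514 rested on the left part, at -0.47 (SE 0.24), while the right part gave 0.019 (SE 0.14). So the sign for IDH2 differed between its probes, and for probe 8514 between array parts and scalings.

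IDH3B encodes the beta subunit of the NAD-dependent isocitrate dehydrogenase, a regulated step of the cycle. Its probe ran from 1.39 to 3.08 with a median of 1.65 in normal pigs and from 1.25 to 2.02 with a median of 1.41 in destructured pigs. Normal replicate 3 was the highest pig, and 3 destructured pigs lay below every normal pig. The fold change was -0.39 (SE 0.22, 95% interval -0.84 to 0.066, limma, adjusted p = 0.462). Without the right part of that pig's array it was -0.13 (SE 0.13). IDH3B lies at a position with a median of 0.12, and with position medians removed it was -0.47 (SE 0.20, limma, adjusted p = 0.395). With both changes it was -0.25 (SE 0.13, limma, adjusted p = 0.481).

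DLST is the succinyltransferase core of the alpha-ketoglutarate dehydrogenase complex, the next oxidation of the cycle. Its probe ran from 1.98 to 4.08 with a median of 2.07 in normal and from 1.76 to 2.11 with a median of 1.97 in destructured pigs. Apart from normal replicate 3 no normal pig exceeded 2.35. The fold change of -0.41 (SE 0.26, 95% interval -0.95 to 0.14, limma, adjusted p = 0.521) became -0.14 (SE 0.10) without the right part of that pig's array. The normal SD then went from 0.762 to 0.136, close to the 0.129 of destructured pigs. With both changes the fold change was -0.10 (SE 0.11).

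SUCLA2, the ATP-forming beta subunit of succinyl-CoA synthetase, makes a nucleotide triphosphate directly in the cycle. Its probe ran from 1.91 to 3.43 with a median of 3.02 in normal and from 2.72 to 3.24 with a median of 2.98 in destructured pigs. The destructured pigs lay inside the normal range. The fold change was 0.14 (SE 0.20, 95% interval -0.28 to 0.55, limma, adjusted p = 0.817). The sign turned without the right part of normal replicate 3 (-0.042, SE 0.14), with position medians removed (-0.020, SE 0.18) and with both (-0.19, SE 0.13).

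**Figure D2:**
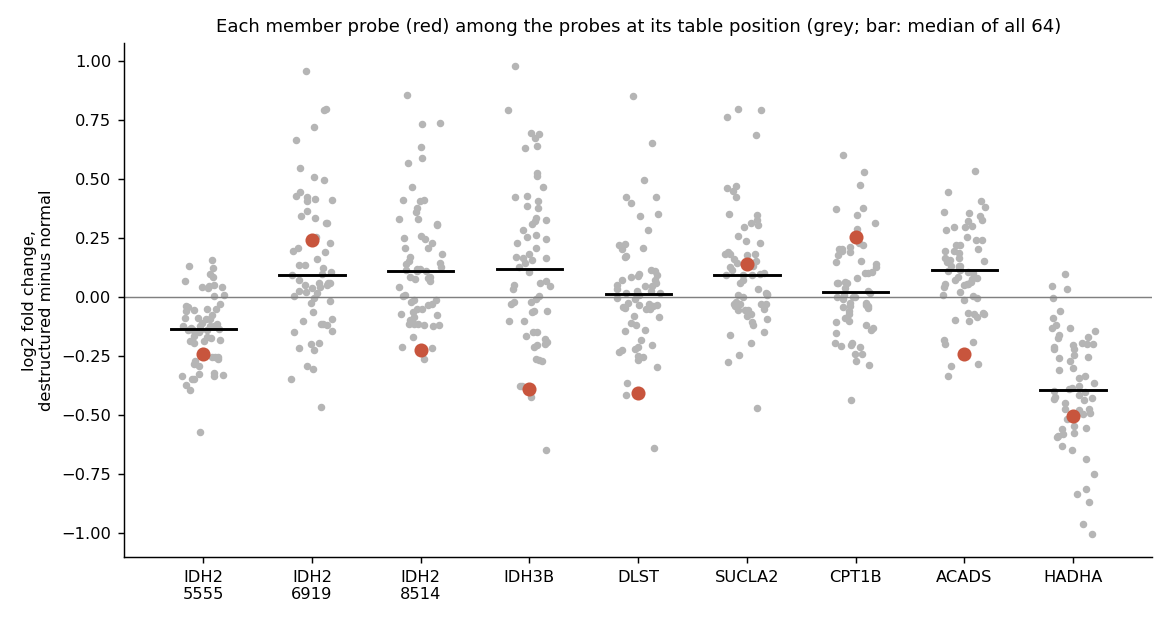
Log2 fold change (destructured minus normal, vertical axis) of each member probe (red) and of the other probes at the same table position (grey), with the median of all 64 probes of that position as a black bar. HADHA at -0.51 lies among position mates whose median is -0.39. IDH3B (-0.39), DLST (-0.41), ACADS (-0.24) and IDH2 probe 8514 (-0.22) lie near the lower end of theirs.

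**Figure D3:**
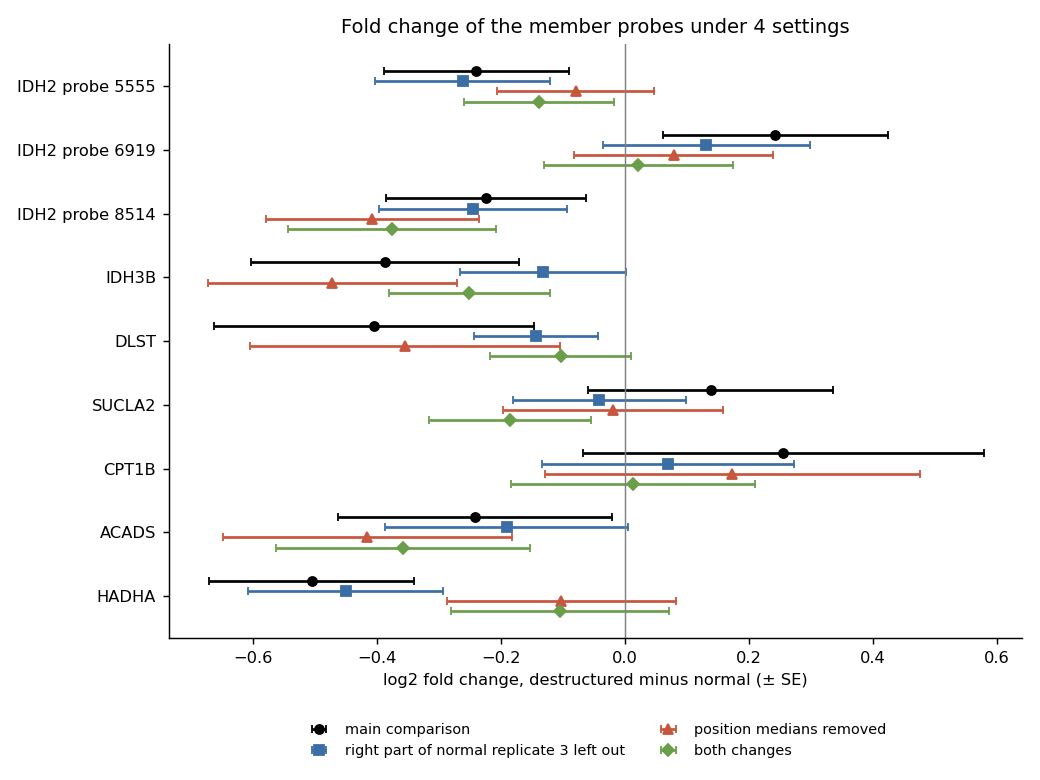
Log2 fold change (destructured minus normal, horizontal axis) with its standard error for each member probe under 4 settings: the main comparison, without the right part of normal replicate 3, with position medians removed, and with both changes. HADHA moves from -0.51 to -0.10 with position medians removed, and DLST from -0.41 to -0.14 without that array part.

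With both changes together 7 of the 9 probes were negative, with a median of -0.14 against -0.0096 over all probes. Of all 4608 probes 2402 were then negative, and of the 509 with a single symbol 296 were, with a median of -0.0345. The same member count was found with either change alone, and 6 with median centring. Over all probes 2364 were negative without that array part, 2383 with position medians removed and 2334 with median centring. Among the 509 with a single symbol these counts were 276, 292 and 294. On the deposited scale 4 members were negative, with a median of 0.047 against 0.21 over all probes, of which 835 were negative. These counts describe the members and were not tested.

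The error behind these values was judged from the array parts. The standard deviation between parts, over the 13 pigs without normal replicate 3, ran from 0.145 for CPT1B to 0.522 for HADHA. HADHA thus had the widest gap between parts of the 9 probes. Across those pigs its parts correlated at 0.180, and only DLST was lower, at -0.19. With normal replicate 3 included, the SD of normal pigs exceeded that of destructured pigs for 8 of the 9 probes. The exception was IDH2 probe 5555 (0.260 and 0.274). Without the right part of that pig's array the normal SD of IDH3B was also the smaller (0.215 and 0.275). For DLST the SDs were then close (0.136 and 0.129).

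**Figure D4:**
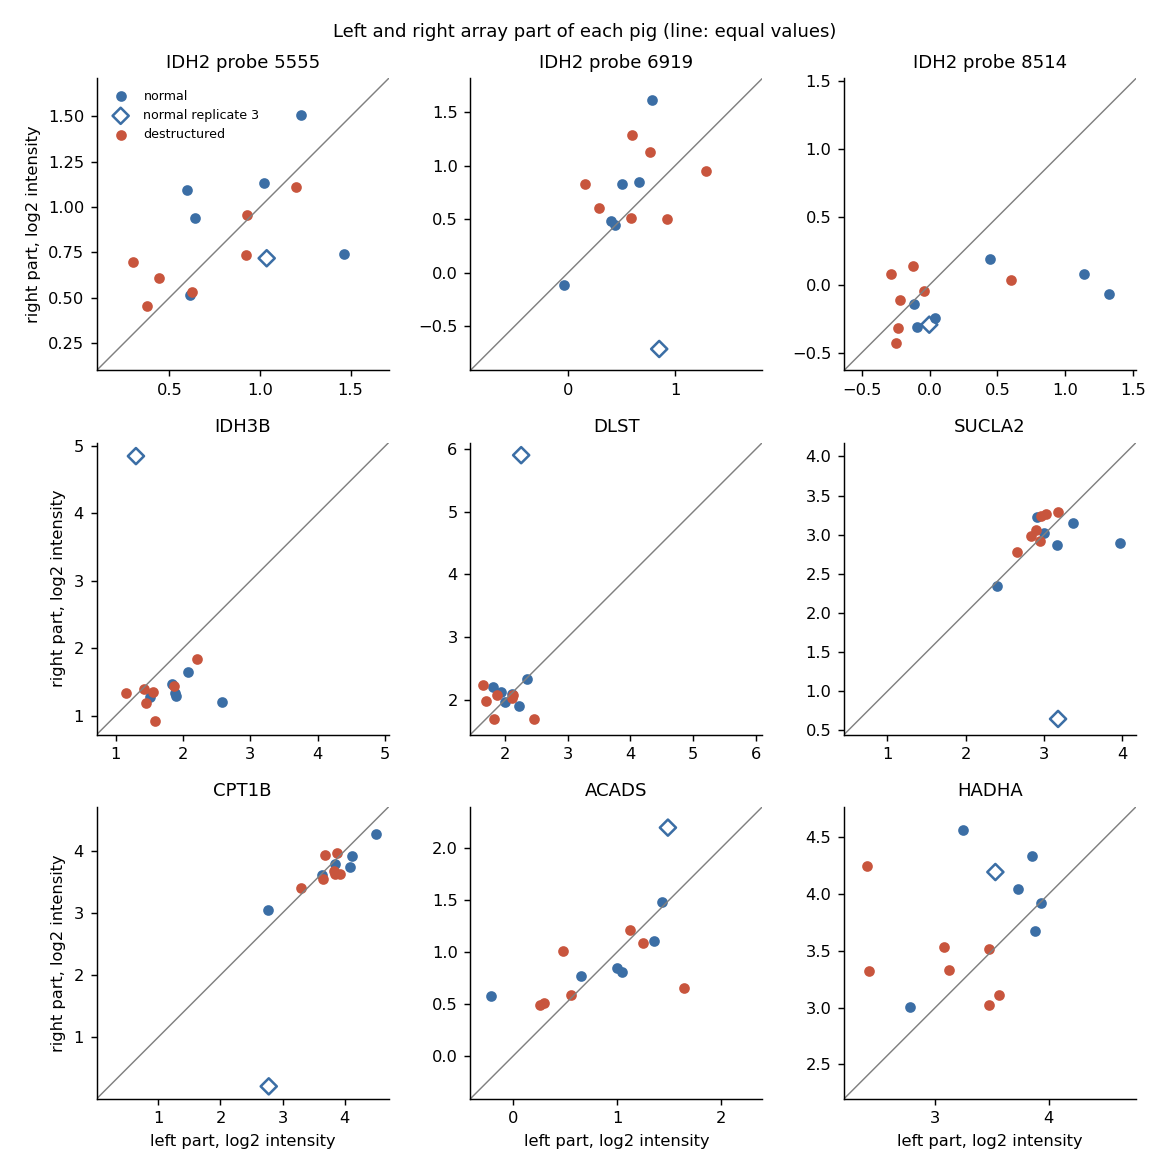
Left (horizontal) against right (vertical) array part of each pig for the 9 member probes, in log2 intensity; the line marks equal values and the open diamond is normal replicate 3. That pig lies far from the line for DLST, IDH3B, SUCLA2, CPT1B and IDH2 probe 6919, and the HADHA panel shows the widest scatter among the other pigs.

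Correlations among the members from pig to pig differed in sign. After the group means were subtracted, the 36 pairs of member probes correlated over the 14 pigs at a median of -0.013, from -0.82 to 0.89, and 16 pairs were above 0. The 3 pairs of IDH2 probes stood at -0.41, 0.11 and 0.30. The highest pair was IDH3B with DLST at 0.89, which was 0.38 with both changes, and CPT1B with SUCLA2 went from 0.83 to 0.20. All pairs share arrays and scaling, so these are descriptions.

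For each gene's brightest probe, the most similar probe of another named gene was sought in the same way. CPT1B was closest to NDUFA4, a respiratory chain protein (r = 0.97 over 14 pigs, 0.85 with both changes), and ACADS to probe 7554 of the fast myosin light chain MYLPF (0.90 and 0.86). HADHA was closest to the muscle enolase ENO3 (0.76 and 0.67, but 0.30 with position medians removed alone) and IDH2 to a probe of the creatine kinase CKM (0.88 and 0.59). DLST and IDH3B shared the glycolytic TPI1 probe 5189 (0.96 and 0.89), at 0.46 each with both changes, and SUCLA2 was closest to UCP3 (0.87 and 0.23). The candidates were 506 to 508 probes, and again the points share arrays and scaling.

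Few other genes of these pathways carry a probe here. Of 32 further genes listed for the citric acid cycle and pyruvate entry, GOT1 of the malate-aspartate shuttle alone was measured, at -0.23 (SE 0.21, limma, adjusted p = 0.688). Of 40 further genes of fatty acid uptake and oxidation 6 were measured by 12 probes, 7 positive and 5 negative with a median of 0.044, and 0 passed, with 1 at an unadjusted p under 0.05. That balance depended on the setting: 7 of the 12 were negative with both changes (median -0.020) and with median centring (median -0.026), and 2 on the deposited scale (median 0.19). On the deposited scale all probes had a similar median of 0.21, and 835 of 4608 were negative. CPT1A, the liver form of the transferase, stood at -0.23 (SE 0.16), and the electron carrier subunit ETFB at -0.16 and -0.36. The fatty acid binding protein FABP3 had 0.027 and -0.17, and the fat-sensing receptor PPARD 0.22 (SE 0.13). The uncoupling protein UCP2 had the smallest p of these, at -0.37 (SE 0.15, limma, adjusted p = 0.295), and -0.17 with position medians removed. The 5 probes of UCP3, the muscle uncoupling protein, ran from 0.061 to 0.42 with limma adjusted p of at least 0.471. With both changes 3 of those 5 were negative, and with median centring 1 was.

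Markers of other cells that a muscle piece can hold were few. The fibroblast genes FN1 and MGP, 2 of 7 listed, stood at -0.34 (SE 0.17) and -0.58 (SE 0.35), with means of the pair from 2.00 to 3.77 in normal and from 1.63 to 2.65 in destructured pigs. The adipocyte genes FABP4 and PPARG, 2 of 9, stood at 0.28 and 0.064, with means from 1.73 to 2.69 and from 2.17 to 2.47. The immune gene CD74, 1 of 6, had probes at -0.0047 and 0.016, with means from 1.54 to 2.15 and from 1.55 to 2.29. The endothelial gene PECAM1, 1 of 5, was at -0.031, from -0.53 to 0.11 and from -0.29 to 0.19. No probe of the array had an intensity of 0 (the smallest was 0.039), so a marker's value does not by itself show that it was expressed. For the 8 blood and nerve genes no probe was listed, and no marker passed. Several of these values moved with the setting. MGP stood at -0.29 when the right part of normal replicate 3 was dropped and at -0.42 with both changes. FN1 was at -0.33 and -0.43 in the same settings. With both changes FABP4 was at 0.051 and PPARG at -0.13. Their part in the members' values was not tested.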

How the data were processed

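The deposited table holds linear intensities of 4608 probes in 28 columns, 1 column for each part of each array. Per the series' design text, phosphor images were quantified with BZscan at a fixed spot diameter; per the labels' protocols, an earlier hybridisation with an oligonucleotide checked the cDNA in each spot. Background correction and scaling by the authors are not given in the sources used here. All 28 columns were used. Column medians spanned 1.12 on the log2 scale, so the log2 columns were quantile normalized, and the 2 parts of each array were averaged per pig. The groups were compared with limma 3.58.1 (lmFit, eBayes) in R 4.3.3, group as the only term, no filter, and Benjamini-Hochberg adjustment over 4608 probes at 0.05. No depth applies, and the number of arrays limits the precision. Nothing in the labels names a scan or membrane batch.

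Gene names came from the platform annotation. Every member probe is reported; genes of the pathway and marker lists are given where measured. The members and lists were chosen with earlier results of these data known. On simulated data for destructured against normal with 4608 probes, 50 probes were changed at each of 4 sizes. The limma fit recovered 38% of those changed by 0.5, 84% by 1, 96% by 1.5 and 100% by 2 on the log2 scale, with 8 false calls. The simulated noise was independent between probes, whereas table position held 27.3% of the variance of the real fold changes. These rates may therefore not hold for the real probes. Alternatives covered scaling, dim probes, array parts, pigs, position, variance model and test. Python 3.11.15 with matplotlib 3.10.9 drew the figures.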

Additional observations from a re-analysis of the deposited data

Results flagged for a closer look

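Within each group of 7 pigs the highest and lowest values were compared with Dixon's critical value at 95% for the share of the range taken by the gap to the next pig. Chance gives such a gap in about 1 of 20 groups, and 4 of the 20 groups looked at had one.

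Normal replicate 3 stood above the other normal pigs for the probe listed for DLST, at 4.08 with the next pig at 2.35 (log2 intensity), and for that listed for IDH3B, at 3.08 with the next at 1.89. The same pig had the lowest correlation of array parts, 0.380, with the next at 0.868. On its left part alone DLST stood at 2.26 and IDH3B at 1.30. Normal replicate 6 stood below the other normal pigs for HADHA, at 2.89 with the next at 3.78. Both parts of its array were low there, at 2.77 and 3.01, but they share the RNA and the table position. With position medians removed this pig was at 0.24, with the next normal pig at 0.35 and the highest at 1.29.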

How the results depend on the processing

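In the 33 alternatives run no member probe passed, except HADHA without normal replicate 6; leaving out 1 pig at a time thus gave 0 to 1 members called. HADHA had an unadjusted p under 0.05 in 29 of the 33, many of which overlap. It did not on the deposited scale (limma, unadjusted p = 0.198) or in any setting with position medians removed (limma, unadjusted p from 0.332 to 0.585). DLST, IDH3B and HADHA kept their direction in all 33, ACADS in all 32 and IDH2 probe 6919 in all 31 that held it, though ACADS came to -0.013 on the deposited scale and -0.036 with array weights, and probe 6919 to 0.021 with the right part of normal replicate 3 left out and position medians removed. On the deposited scale IDH2 probes 5555 and 8514 turned to 0.047 and 0.056, and probe 8514 was 0.019 on the right part. SUCLA2 turned to -0.21 on the left part, -0.042 without the right part of normal replicate 3, -0.020 with position medians removed, -0.19 with both, -0.0092 with array weights and -0.12 with brightness in the fit. CPT1B turned to -0.12 with array weights and -0.030 with brightness in the fit. Leaving out a pig gave -0.021 to 0.23 for SUCLA2 and -0.071 to 0.41 for CPT1B, both lowest without normal replicate 3.

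The 30 calls over all probes moved widely: 2 on the deposited scale, 6 with median centring, 49 and 56 without the dimmest 25% and 50% of probes, 12 and 1 on the left and right part, 135 without the right part of normal replicate 3, 5 with position medians removed, 17 with both, 3 with position medians removed and no normal replicate 6, 6 with trend and robust variances, 129 with array weights, 53 with an offset of 1, 1 with brightness in the fit, 59 by exact permutation, 111 at a threshold of 0.10, and 2 to 84 leaving out a pig (lowest without destructured replicate 3, highest without normal replicate 3). The dim filters kept 7 and 5 of the 9 member probes. The cause of these shifts was not tested. The replicate numbers in the titles mark array parts, not pairs of pigs: with the part as a replicate block and the pig as a random effect 107 probes and 0 members were called. The pig number found in both groups (normal replicate 2 and destructured replicate 3) could not be fitted as a random block, since it repeats once. The deviations of its samples correlated at -0.11. With that number as a fixed block, added after the data were seen, 9 probes and 0 members were called. Without both samples 3 probes and 0 members were called.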

Other observations

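Some members moved with the probe in the next table row. After group means were subtracted, CPT1B correlated over the 14 pigs at 0.96 with the UCP3 probe in the row before it, and at 0.89 without the right part of normal replicate 3 and with position medians removed. DLST correlated at 0.85 with the ENO3 probe before it and at 0.96 with the TPI1 probe after it, and at 0.64 and 0.46 after the same changes. The median over all 4607 pairs of adjacent rows was 0.32, and 0.27 after those changes. The named neighbours are different genes, and adjacent rows share arrays and scaling.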
